A study of Mus musculus with 6 samples.

Results

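Krüppel-like factors are transcription factors that carry zinc fingers at the carboxyl terminus and bind GC-rich and CACCC-type DNA. The genes described here are Klf2, Klf3, Klf4, Klf6, Klf7, Klf9, Klf10 and Klf13, taken with every probe set (the group of short probes that reads 1 transcript) annotated to a single one of these symbols. They make up 8 of the 18194 genes and 30 of the 45101 probe sets on the arrays. The leukemias came from mouse bone marrow of the C57BL/6 strain that carried a transduced MLL-ENL gene, a fusion of a histone methyltransferase with an elongation factor, and were collected from congenic recipients once these were moribund. In the 3 leukemias labelled Runx1-KO the Runx1 gene had been excised, and in the 3 labelled Control it was intact, so all 6 carried the fusion and each came from an independent leukemia. Not given are the age of the mice, how Runx1 was excised, or whether cells of the recipient remained in the harvest. The comparison asked how the absence of Runx1, a transcription factor of blood formation, altered expression in these leukemias.

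The family works in both directions. Klf2, Klf4, Klf6 and Klf7 are mainly activators, Klf3 represses by recruiting CtBP proteins, and Klf9, Klf10 and Klf13 share a short domain that recruits the SIN3 co-repressor. Within blood, Klf2 is known for holding naive T cells quiescent and in circulation, Klf4 for monocyte differentiation, Klf6 for inflammatory activation of macrophages, and Klf3 as a partner and target of the erythroid factor Klf1. Several of these genes, Klf2, Klf4, Klf6 and Klf10 among them, also respond within the hour to serum, stress or cytokines.

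On the deposited scale, whose normalization is not given, the arrays were close in median intensity. Median intensity ran from 24.4 to 26.0, and 57.4% to 64.7% of genes exceeded a background limit, which on each array was the brightest of 27 spike-in probe sets without target. Signal for Runx1 itself was not lost: its brightest probe set stood at 1128, 1573 and 1629 in Runx1-KO 1, 2 and 3, against 680.3, 1021 and 850.0 in Control 1, 2 and 3. Every one of its 6 probe sets read higher in Runx1-KO, and where they lie relative to the excised part is not given, so the labels could not be checked through them and directions refer to arrays as labelled. The leukemia markers Hoxa9, Meis1, Kit, Cd34 and Mpo were above background on all 6 arrays. Sex differed with genotype: Xist was at 1624, 1857 and 1895 in Runx1-KO against 330.8, 85.4 and 25.3 in Control, and the Y-linked genes Eif2s3y, Kdm5d and Uty were below background in every Runx1-KO array and above it in every Control array, so sex and genotype cannot be told apart in any result here. For RNA integrity, Gapdh signal at the 3′ end over the 5′ end was 7.10 in Runx1-KO 1 and 2.67 to 3.02 elsewhere, while the same ratio for actin was 1.11 in Runx1-KO 1 and 1.03 to 1.096 elsewhere. Replicates were labelled as biological, and 3 arrays per group limit the precision of every value.

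None of the 8 Krüppel-like factor genes passed the test between Runx1-KO and Control. With limma, 0 of 8 had an adjusted p under 0.05 over all 18194 genes, where 0.0879% of genes were called (0.033% higher and 0.055% lower in Runx1-KO). At an unadjusted p under 0.05 there were 2 of 8, where 12.6% of all genes were past it (5.62% higher and 7.01% lower). These were Klf7 and Klf9. Both were higher in Runx1-KO and were the members whose groups did not overlap, against 20.9% of all genes without overlap in either direction. The median log2 difference (Runx1-KO minus Control) over the 8 genes was 0.05, with 4 higher and 4 lower, beside a median of -0.01 over all genes. The brightest probe set of every member was above background on all 6 arrays, so all 8 genes were measured in both groups.

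**Figure D1:**
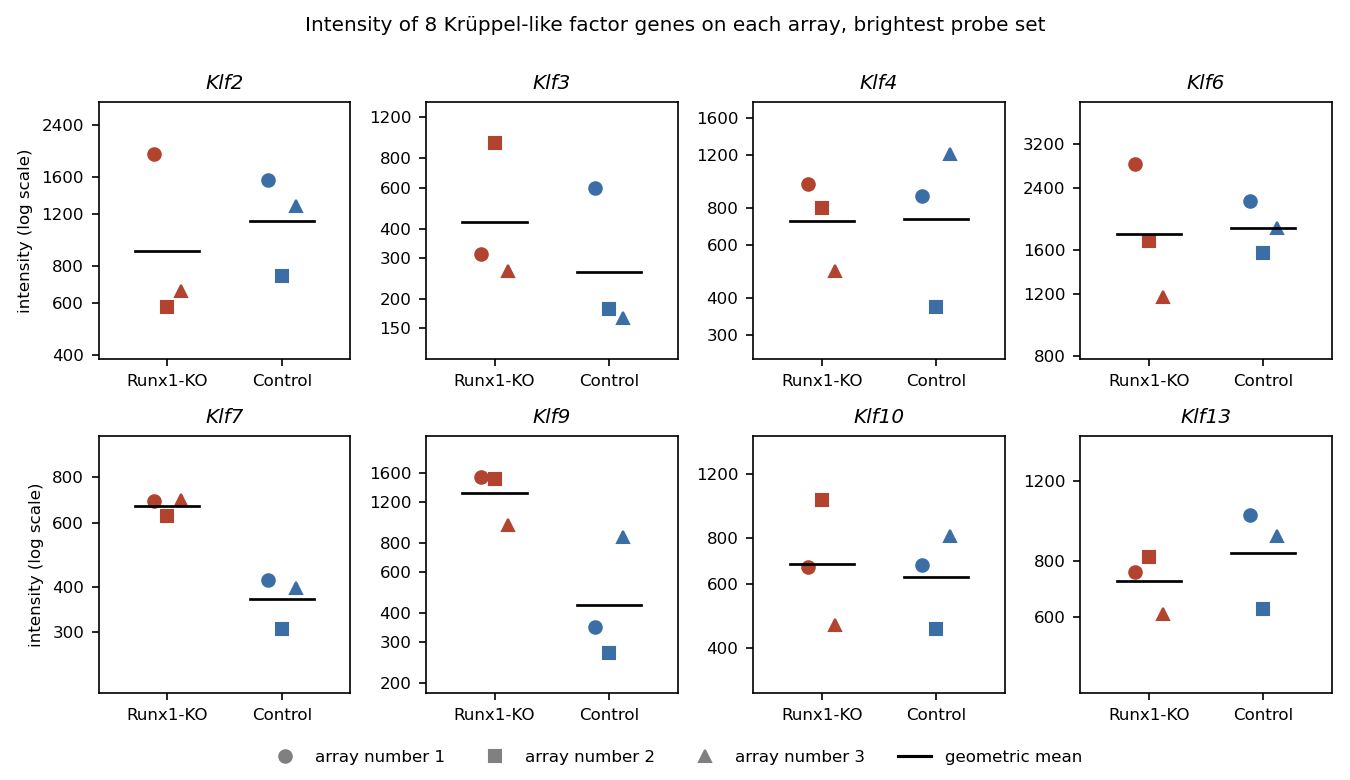
Intensity (log scale, one scale per panel) of the brightest probe set of each gene on each of the 3 Runx1-KO and 3 Control arrays, with the marker shape giving the array number and the line the geometric mean. Klf7 and Klf9 are the panels in which every Runx1-KO array lies above every Control array, and the highest Klf2 value is that of Runx1-KO 1 at 1926.

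Klf7, best known in mice for the outgrowth of sensory and cortical axons, gave the most even pair of groups. Its intensity was 688, 626 and 694 in Runx1-KO 1, 2 and 3, against 418, 305 and 397 in Control 1, 2 and 3. The 3 Runx1-KO arrays lay within 1.11-fold of one another, and the lowest of them was 1.50-fold above the highest Control array. The geometric means were 668 in Runx1-KO and 370.2 in Control, which is 1.81-fold or 0.85 ± 0.20 on the log2 scale (SE, 3 arrays in each group), with a limma adjusted p of 0.221. By exact permutation of the arrays (two-sided) p was 0.1, and 3 arrays against 3 allow none smaller. All 4 Klf7 probe sets were higher in Runx1-KO, by 0.21 to 0.85 on the log2 scale. The groups were apart on 2 of them, the brightest and the next (0.70 ± 0.28), and overlapped on the 2 dimmest (0.37 ± 0.25 and 0.21 ± 0.32). When the 4 probe sets were averaged the log2 difference was 0.53, against 0.85 on the brightest.

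Klf9, a factor induced by thyroid hormone and glucocorticoids, had the largest difference among the 8 genes and a wide spread in Control. Its intensity was 1543, 1511 and 956 in Runx1-KO 1, 2 and 3, against 347, 269.9 and 852 in Control 1, 2 and 3. Control 3 thus stood close to Runx1-KO 3, which exceeded it 1.12-fold, while Control 1 and Control 2 lay well below both. The geometric means were 1306 in Runx1-KO and 430.3 in Control, which is 3.04-fold or 1.60 ± 0.47 on the log2 scale (SE, 3 arrays in each group), with a limma adjusted p of 0.287 and an exact permutation p of 0.1. Leaving out Control 3 gave a difference of 2.09 ± 0.32, and leaving out Control 2 gave 1.27 ± 0.47. Averaging all 7 probe sets gave 0.98, and the adjusted p ran from 0.283 to 0.512 over the 6 fits that each left out 1 array. The 95% interval with all arrays ran from 0.46 to 2.74.

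The Klf9 probe sets differed in brightness and mostly had the same sign. Of 7, 3 were above background on all 6 arrays, and these gave log2 differences of 1.60, 1.45 and 1.43, each without overlap between the groups. The second read 331, 638 and 425 in Runx1-KO 1, 2 and 3, against 146, 95.1 and 314 in Control 1, 2 and 3. On 4 others at least 1 array lay at background. Of these, the pair above background on 3 of 3 Runx1-KO and 2 of 3 Control arrays was at least 2.13-fold and at least 2.03-fold higher in Runx1-KO, counting the dim array at its limit. The groups overlapped on the second of this pair. They also overlapped on a probe set above background on 2 of 3 arrays in each group (0.34 ± 0.75). The dimmest, with a level at or near background throughout, was the single Klf9 probe set that was lower (-0.18 ± 0.28).

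**Figure D2:**
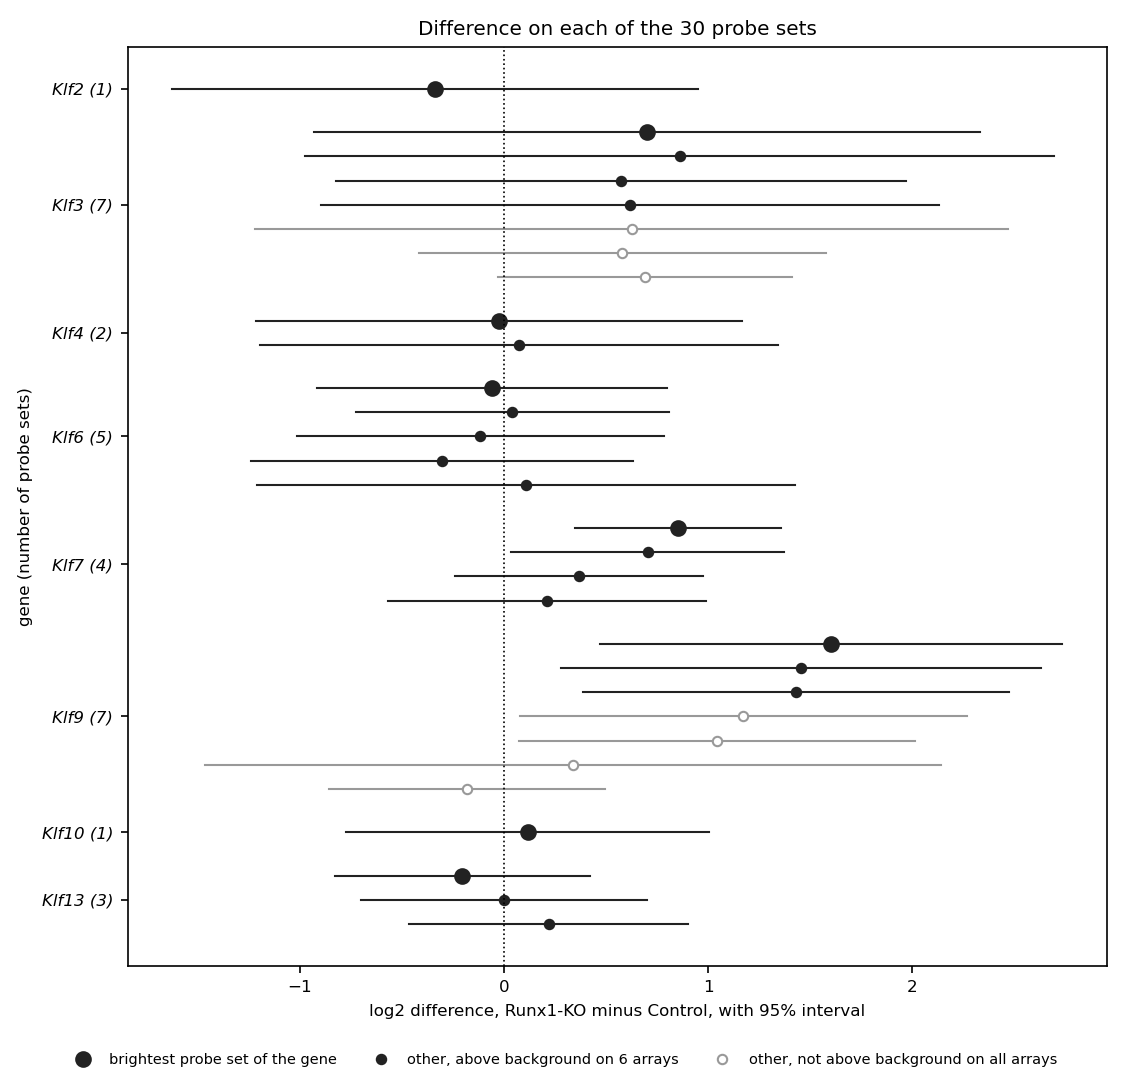
Log2 difference (Runx1-KO minus Control, horizontal axis) with its 95% interval from the fit over all probe sets with 1 symbol, for each of the 30 probe sets, ordered by brightness within a gene. Intervals of the 5 brightest Klf9 probe sets and the 2 brightest Klf7 probe sets lie to the right of 0, while those of Klf2, Klf4, Klf6, Klf10 and Klf13 all span 0.

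Over the 30 probe sets, 0 passed at an adjusted p of 0.05 among 34958 probe sets, where 0.0858% were called. At an unadjusted p under 0.05 there were 7, beside 12.3% of all probe sets. The lowest adjusted p was 0.234, on the brightest Klf7 probe set. Groups did not overlap on 7 probe sets, all higher in Runx1-KO, against 20.4% of all probe sets in either direction. They were 2 of Klf7, 4 of Klf9 and 1 of Klf3 that was at background on every array.

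Among blood cell markers 0 passed, and their values are given here beside Klf7 and Klf9. Of 11 measured neutrophil markers, 11 were higher in Runx1-KO, with summed intensities of 16578 to 19170 in Runx1-KO and 8626 to 13283 in Control. Of 9 monocyte and macrophage markers, 7 were lower, with sums of 5573 to 6036 in Runx1-KO and 7810 to 10915 in Control. T cell markers summed to 89.1 to 106.7 in Runx1-KO and 135.7 to 196.7 in Control, and 2 of 7 were higher in Runx1-KO. In every Runx1-KO array 5 of 7 were below background, Cd3e, Cd3d and Cd3g among them. Control was dim as well: Cd3e and Cd3g were above background on 2 of 3 Control arrays and Cd3d on 1 of 3. On all 6 arrays 0 of 7 were above it. Counting arrays below background at their limit, Cd3e was 1.28-fold, Cd3d 1.22-fold and Cd3g 1.11-fold lower. Natural killer markers summed to 58.6 to 72.7 in Runx1-KO and 49.4 to 89.0 in Control, but went both ways. Gzma (-2.87), Klrd1 (-1.23) and Ncr1 (-0.81) were lower without overlap on the log2 scale and below background in every Runx1-KO array. Ncr1 was below background in every Control array as well. Nkg7 (2.12) was higher without overlap. With arrays below background set at their limit, Gzma was 1.34-fold and Klrd1 1.36-fold lower, and Nkg7 2.46-fold higher. B cell markers summed to 142.8 to 281.2 in Runx1-KO and 188.1 to 251.5 in Control. Of 6 endothelial markers, 4, including Cdh5, Kdr and Tek, were below background on all arrays. The part of these cells in the Klf7 and Klf9 values was not tested, and in whole-leukemia RNA fewer cells of a type and less RNA per cell cannot be told apart.

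The promoter sequences show which short motifs stand beside the genes. Below are the 250 bases before the annotated start of Klf9, the gene with the largest difference, and of Klf3, which held the most boxes of the 7 windows searched and is shown for contrast, from RefSeq on GRCm38.p6, 5′ to 3′ on the gene's strand. Capitals mark the searched motifs on either strand: the RUNX core (TGTGGT or TGCGGT), the GC box bound by SP and Krüppel-like factors (GGGCGG) and a CACCC box (CCACCC).
Klf9 (chr19:23140976-23141225, plus strand): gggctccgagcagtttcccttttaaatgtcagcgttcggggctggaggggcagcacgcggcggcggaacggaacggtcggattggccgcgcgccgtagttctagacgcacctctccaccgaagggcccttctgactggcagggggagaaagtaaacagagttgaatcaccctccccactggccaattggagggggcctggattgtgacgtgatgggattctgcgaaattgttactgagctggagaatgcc
Klf3 (chr5:64803271-64803520, plus strand): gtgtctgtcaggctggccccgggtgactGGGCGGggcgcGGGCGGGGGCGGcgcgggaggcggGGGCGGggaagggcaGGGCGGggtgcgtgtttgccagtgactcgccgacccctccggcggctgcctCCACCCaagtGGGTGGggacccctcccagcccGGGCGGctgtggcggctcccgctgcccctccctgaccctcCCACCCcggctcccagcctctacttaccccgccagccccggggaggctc
Promoter windows were on hand for 7 of the 8 genes, Klf10 being the one without. A RUNX core stood in 0 of these 7 windows and in 18.6% of 32817 windows of the same length. A GC box stood in 6 of 7, all but Klf9, against 32.7% of all windows, and a CACCC box in 4 of 7 (Klf2, Klf3, Klf7 and Klf13) against 28.1%. Adjoining GC and CACCC boxes can share bases, as in the Klf13 window. The Klf3 window held 6 GC boxes and 3 CACCC boxes, and the Klf9 window held none of the searched motifs, so it carries no capitals. The Klf9 window does hold the letters CACCC after a T, which the longer searched CCACCC does not match. The Klf7 window, with 1 GC box and 3 CACCC boxes, precedes a start that lies inside the outer bounds RefSeq gives for the gene, so it is not the sequence before the whole gene and is not printed. The windows of the other 6 genes end where the gene begins. Members' windows were GC-rich, from 59.2% in Klf7 and 59.6% in Klf9 to 78.4% in Klf3. A match describes letters only, and its absence applies to these windows alone.

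Klf2 and Klf6 varied more within each group than between them. Klf2 stood at 1926, 582 and 659 in Runx1-KO 1, 2 and 3, against 1573, 741 and 1280 in Control 1, 2 and 3. Runx1-KO 1 and Control 1 were thus the highest of their groups, and Runx1-KO 2 and 3 were below all Control arrays. The log2 difference was -0.34 ± 0.53 (SE, 3 arrays in each group, limma adjusted p = 0.831), with a 95% interval from -1.63 to 0.96. Without Runx1-KO 1 it was -0.88 ± 0.37 (adjusted p = 0.344), and without both arrays numbered 1 it was -0.65 ± 0.35 (adjusted p = 0.503), with the groups apart for Klf2 and for 47.3% of all genes. Runx1-KO 1, with the highest Klf2 of its group, was the array whose Gapdh ratio stood apart (7.10) and whose actin ratio (1.11) did not, and the part of RNA integrity in the Klf2 values was not tested. The MAP kinase phosphatase gene Dusp1, which is induced within minutes by stress and glucocorticoids, was likewise highest in the arrays numbered 1. Dusp1 read 2222, 439 and 370.1 in Runx1-KO 1, 2 and 3, against 2499, 707 and 732 in Control 1, 2 and 3. Klf4 and Klf10, which also respond to stress, did not follow: Klf4 was highest in Control 3 and Klf10 in Runx1-KO 2. The part of a stress response in the Klf2 values was not tested.

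Klf6 read 2808, 1699 and 1173 in Runx1-KO 1, 2 and 3, against 2196, 1562 and 1845 in Control 1, 2 and 3. Runx1-KO 1 held the highest value and Runx1-KO 3 the lowest, with the 3 Control arrays between them. The log2 difference was -0.06 ± 0.35 (adjusted p = 0.962), with a 95% interval from -0.91 to 0.79. Its 5 probe sets, all above background, ran from -0.30 to 0.11, with 2 higher and 3 lower, and 4 of the 5 were highest in Runx1-KO 1. The sign was therefore not settled, and it turned to 0.24 without Runx1-KO 3 and to 0.065 without Control 1.

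Klf4, which drives monocyte differentiation and is one of the factors used to reprogram cells to pluripotency, did not separate the groups. It stood at 957, 799 and 492 in Runx1-KO 1, 2 and 3, against 878, 373 and 1208 in Control 1, 2 and 3, so the lowest and the highest of the 6 values were both in Control. The log2 difference was -0.02 ± 0.49 (adjusted p = 0.991) with a 95% interval from -1.22 to 1.17, wide enough to hold a 2-fold change either way. The second probe set gave 0.08 ± 0.53 and was, like the first, highest in Control 3. The monocyte and macrophage markers had a median log2 difference of -0.78 over 9 measured genes, of which 0 passed and 2 were higher. That median lies inside the Klf4 interval.

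Klf3 was high in 2 single arrays, 1 of each group. Its intensity was 313, 933 and 264 in Runx1-KO 1, 2 and 3, against 596, 182 and 166 in Control 1, 2 and 3. Runx1-KO 2 was the highest array on all 7 Klf3 probe sets and Control 1 the second highest on 6 of them. The log2 difference was 0.70 ± 0.68 (adjusted p = 0.712), with a 95% interval from -0.94 to 2.34. It was 0.13 ± 0.62 without Runx1-KO 2 and 1.29 ± 0.59 without Control 1, so both arrays weighed on it. All 7 probe sets were higher in Runx1-KO, by 0.57 to 0.86, but they read the same arrays and 3 of them were at background on most or all arrays. Erythroid markers moved with the Control 1 value: their summed intensity was 4076 there and 45.7 to 181.8 in the other 5 arrays, with Runx1-KO 2 the highest of these 5. Alas2 was above background in Control 1 alone. Klf1, the erythroid factor that activates Klf3, read 14.1, 39.3 and 18.2 in Runx1-KO 1, 2 and 3, against 99.2, 30.3 and 32.4 in Control 1, 2 and 3, so Control 1 and Runx1-KO 2 were again the highest. The part of erythroid cells in the Klf3 values was not tested.

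Klf10, also called TIEG1 because transforming growth factor beta induces it early, read 667, 1017 and 464 in Runx1-KO 1, 2 and 3, against 677, 451 and 809 in Control 1, 2 and 3. The groups overlapped fully, and the log2 difference was 0.12 ± 0.37 (adjusted p = 0.922) with a 95% interval from -0.77 to 1.003. Klf13, an activator of the chemokine gene Ccl5 in T cells, read 757, 814 and 611 in Runx1-KO 1, 2 and 3, against 1009, 627 and 909 in Control 1, 2 and 3. Its range over the 6 arrays, 1.65-fold from lowest to highest, was the narrowest of the 8 genes, and that of Klf9, 5.72-fold, the widest. The Klf13 difference was -0.20 ± 0.25 (adjusted p = 0.777), with a 95% interval from -0.81 to 0.41, and its 2 dimmer probe sets gave 0.00 ± 0.29 and 0.22 ± 0.28. Exact permutation tests of the 6 genes other than Klf7 and Klf9 gave p between 0.4 and 1.

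**Figure D3:**
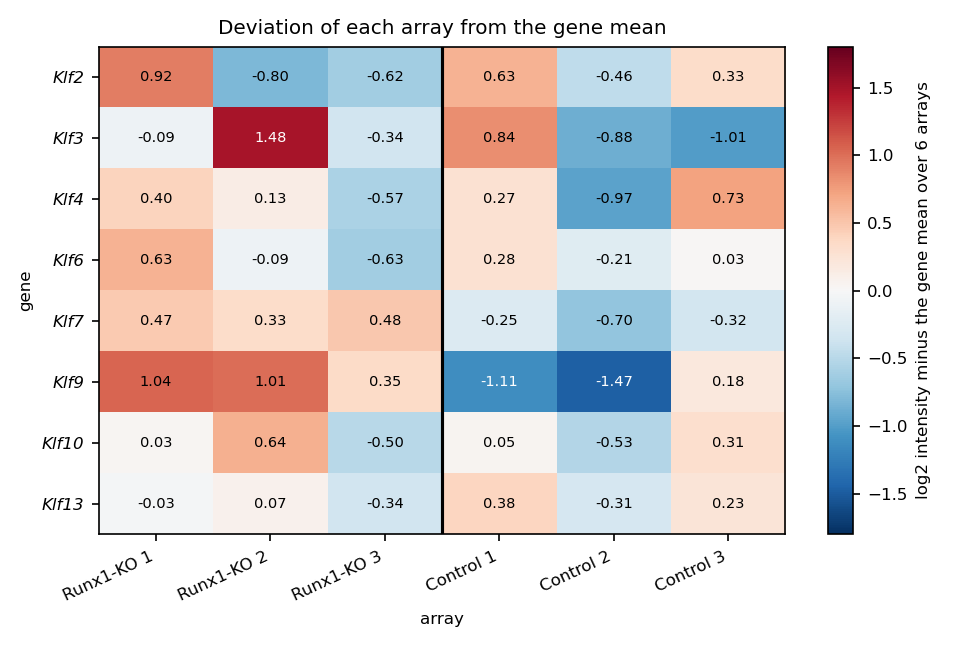
Log2 intensity of each gene on each array minus the gene's mean over the 6 arrays, with Runx1-KO arrays to the left of the line and Control arrays to its right. Klf7 is above its mean on 3 of 3 Runx1-KO arrays and below it on 3 of 3 Control arrays, Klf3 stands out in Runx1-KO 2 at 1.48, and Klf2 is high in both arrays numbered 1.

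Read by array, the members were not raised or lowered together across the 3 arrays of either group, but in Control 2 every member lay below its gene mean. Deviations there ran from -0.21 (Klf6) to -1.47 (Klf9), and the summed intensity of the members was the lowest of all arrays (4511). Runx1-KO 1 held the highest value of 3 genes (Klf2, Klf6 and Klf9), Runx1-KO 2 of 2 (Klf3 and Klf10), and Runx1-KO 3, Control 1 and Control 3 of 1 each. Control 2 held the lowest value of 4 genes (Klf4, Klf7, Klf9 and Klf10) and the highest of 0.

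The genes with the most similar profiles were found by the root mean square difference of log2 values centred on each gene's mean over the 6 arrays, among 10796 named genes above background on at least 3 arrays. Nearest to Klf7 were Zranb1, a deubiquitinase gene (0.11), and the membrane protein gene Pllp (0.12). Zranb1 read 684, 604 and 635 in Runx1-KO 1, 2 and 3, against 391, 354 and 384 in Control 1, 2 and 3. Nearest to Klf9 were Peli2, a ubiquitin ligase gene of interleukin-1 and Toll-like receptor signalling (0.34), and Fbxo32, which encodes the ubiquitin ligase atrogin-1 (0.35), at larger distances. Peli2 read 316, 272 and 226.9 in Runx1-KO 1, 2 and 3, against 53.0, 77.7 and 127.9 in Control 1, 2 and 3. Nearest to Klf2 were the small GTPase gene Rhob (0.14) and Mbtps2, which encodes the site-2 protease (0.15). Rhob, which growth factors and stress also induce at once, read 2132, 640.1 and 786 in Runx1-KO 1, 2 and 3, against 1621, 953 and 1210 in Control 1, 2 and 3. Nearest to Klf3 were Fam214b (0.29) and the transglutaminase gene Tgm2 (0.32), to Klf6 Nudt7 (0.09) and Zdhhc17 (0.10), to Klf10 Lmln (0.10) and Ogg1 (0.14), to Klf13 Gstp1 (0.06) and Sox15 (0.09), and to Klf4 Il17rb (0.18) and Gdpd2 (0.25). None of these 16 genes passed over all genes, and the measure rewards equal shape and size over 6 arrays and says nothing else.

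Of the rest of the family, 8 further Klf genes and 7 Sp genes were measured, and 0 passed in either direction. The other Klf genes were mostly dim. Klf5, Klf12, Klf14, Klf15 and Klf17 lay at or near background, and 3 of these were below it on every array. Klf16 read 106.8, 187.6 and 74.9 in Runx1-KO 1, 2 and 3, against 162.2, 116.0 and 136.3 in Control 1, 2 and 3. Klf12 (1.002 ± 0.48, adjusted p = 0.445) and Klf1 (-1.09 ± 0.59, adjusted p = 0.493) had the lowest p of the group, and Klf12 was below background on all arrays. Klf11, a close relative of Klf10, stood at 224.9 in Runx1-KO 1 and at 24.2 and 18.1 in Runx1-KO 2 and 3, against 125.3, 78.1 and 91.4 in Control, so that Runx1-KO 1 and Control 1 were the highest, as for Klf2. The log2 medians were 0.04 for the other Klf genes and -0.09 for the Sp genes. Sp1, the ubiquitous GC box activator, read 879, 946 and 1077 in Runx1-KO 1, 2 and 3, against 868, 913 and 988 in Control 1, 2 and 3 (0.06 ± 0.18, adjusted p = 0.910). Sp8 had the lowest p of the Sp genes (adjusted p = 0.258) but was below background on all arrays, and Sp6 followed at 0.14 ± 0.19 (adjusted p = 0.801).

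Among the genes that act on the family, the MEK5-ERK5-MEF2 cascade, which induces Klf2 and Klf4 in endothelium, had 0 of 7 genes past the threshold, with 6 higher and a median log2 difference of 0.19. Mef2c had the lowest p (1.55 ± 0.72, adjusted p = 0.431) and read 606, 1408 and 1255 in Runx1-KO 1, 2 and 3, against 419.7, 126.4 and 809 in Control 1, 2 and 3. Only Runx1-KO 1 lay inside the Control range. Mef2d followed at 0.46 ± 0.28 (adjusted p = 0.540). Klf2 had its lowest Runx1-KO value in Runx1-KO 2, where Mef2c was highest. In Control the lowest Klf2 value was in Control 2 (741), where Mef2c was lowest. The relation between these genes was not tested. Of 10 ubiquitin ligase genes known to act on Krüppel-like factors, 0 passed, with 5 higher, 5 lower and a median of 0.02. Btrc, whose product targets KLF4, read 78.5, 30.2 and 35.7 in Runx1-KO 1, 2 and 3, against 121.5, 99.1 and 90.2 in Control 1, 2 and 3, with no overlap (-1.23 ± 0.39, adjusted p = 0.310). It was the 1 gene of this list lower without overlap, where 11.7% of all genes were. Fbxw7 (0.70) and Siah1a (0.59) were higher without overlap, where 9.17% of all genes were. Fbxo32 had a fitted difference of 1.49 ± 0.61 (adjusted p = 0.394), with 2 of 3 Runx1-KO and 1 of 3 Control arrays above background.

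The cofactor list held co-repressors together with the acetyltransferase co-activators Ep300, Crebbp and Kat2b. All 11 genes were above background on every array and 0 passed, with a median log2 difference of -0.08 over both kinds. Hdac2, a histone deacetylase of the SIN3 complex, read 1215, 683 and 955 in Runx1-KO 1, 2 and 3, against 1449, 1382 and 1364 in Control 1, 2 and 3 (-0.59 ± 0.25, adjusted p = 0.404). Hdac1 was lower without overlap as well (-0.42 ± 0.23, adjusted p = 0.488), as was the SIN3 scaffold gene Sin3a (-0.34 ± 0.18, adjusted p = 0.489). Against 11.7% of all genes lower without overlap, there were 3 of 11 on this list. Fhl3 was the 1 gene higher without overlap (0.68 ± 0.37, adjusted p = 0.494), where 9.17% of all genes were. The other SIN3 scaffold gene, Sin3b, overlapped between the groups (0.06 ± 0.17, adjusted p = 0.904). Ctbp1, the partner of KLF3, read 549, 487 and 547 in Runx1-KO 1, 2 and 3, against 531, 580.4 and 564 in Control 1, 2 and 3 (-0.08 ± 0.17, adjusted p = 0.870).

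Known targets were read next. Of 5 measured KLF2 targets, 0 passed, and S1pr1, Ccr7 and Nos3 were at or near background. Thbd, the thrombomodulin gene, read 579, 614 and 668 in Runx1-KO 1, 2 and 3, against 521, 654 and 967 in Control 1, 2 and 3 (-0.16 ± 0.27, adjusted p = 0.842), and Ccr7 had a fitted difference of -0.40 ± 0.80 (adjusted p = 0.866). Of the 2 measured genes that KLF3 represses, Lgals3, which encodes galectin-3, was at 635, 2267 and 1089 in Runx1-KO 1, 2 and 3, against 1639.9, 687 and 1374 in Control 1, 2 and 3 (0.01 ± 0.55, adjusted p = 0.9997). Its highest values lay in Runx1-KO 2 and Control 1, the arrays in which Klf3 was also highest. Elsewhere the order differed: Klf3 was lowest in Control 3 (166), where Lgals3 was at 1374. The relation between Klf3 and Lgals3 was not tested. The adipokine gene C1qtnf12 stood at 0.53 ± 0.22 (adjusted p = 0.397). Of 5 cell cycle genes, 0 passed. The inhibitor gene Cdkn1c read 208.7, 274.3 and 207.2 in Runx1-KO 1, 2 and 3, against 122.2, 43.6 and 91.0 in Control 1, 2 and 3 (1.54 ± 0.40, adjusted p = 0.251), and the cyclin gene Ccnd1 read 65.4, 88.5 and 64.8 in Runx1-KO against 453.4, 93.4 and 397.4 in Control (-1.83 ± 0.62, adjusted p = 0.332). Neither pair of groups overlapped, where 20.9% of all genes did not overlap in either direction. For Ccnd1 the gap was narrow, from 88.5 in Runx1-KO 2 to 93.4 in Control 2.

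Genes of the hormone and cytokine pathways that induce Klf9 and Klf10 were read in the same way. Of 8 glucocorticoid response genes, 0 passed, with 3 higher, 5 lower and a median of -0.09. Sgk1, a kinase gene, was higher without overlap at 559, 876 and 467 in Runx1-KO 1, 2 and 3, against 386, 235.9 and 229.6 in Control 1, 2 and 3 (1.15 ± 0.33, adjusted p = 0.287). The clock gene Per1 was lower without overlap at 107.1, 38.0 and 45.3 in Runx1-KO 1, 2 and 3, against 352.4, 133.3 and 224.9 in Control 1, 2 and 3 (-1.95 ± 0.52, adjusted p = 0.257). The receptor gene Nr3c1 stood at -0.11 ± 0.22 (adjusted p = 0.860). In the TGF-β pathway 0 of 8 passed. At an unadjusted limma p under 0.05 there were 3, all higher in Runx1-KO, where 5.62% of all genes were. All 8 genes were higher in Runx1-KO, with a median of 0.70, beside 49.2% of all genes higher. The groups did not overlap in 4 of them, Tgfb1, Smad3, Smad7 and Skil, where 9.17% of all genes were higher without overlap. Smad7, the inhibitory Smad that the pathway itself induces, read 69.1, 103.0 and 108.9 in Runx1-KO 1, 2 and 3, against 32.2, 47.8 and 53.4 in Control 1, 2 and 3 (1.08 ± 0.29, adjusted p = 0.262). The ligand gene Tgfb1 stood at 0.83 ± 0.28 (adjusted p = 0.334). Klf10 itself, at 0.12, lay below each of these 8 genes in log2 difference.

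**Figure D4:**
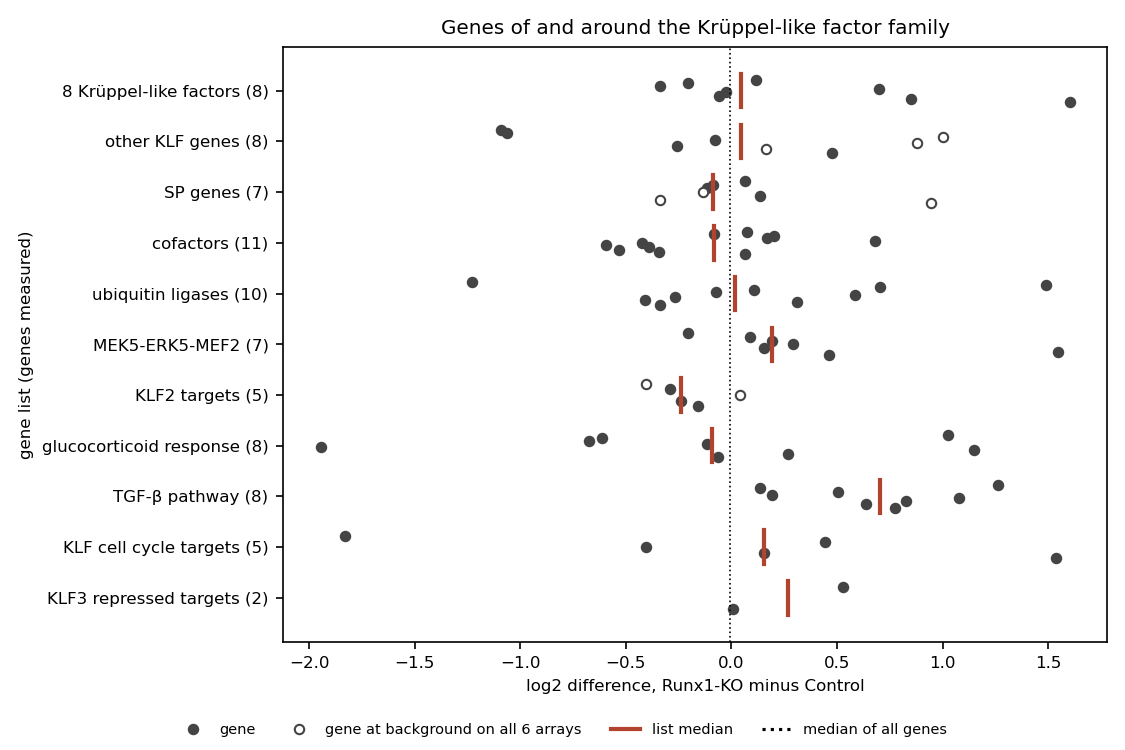
Log2 difference (Runx1-KO minus Control, horizontal axis) of each measured gene, by list, with list medians and the median of all genes. The TGF-β genes all lie to the right of 0, with a median of 0.70, and Klf9 is the rightmost of the 8 Krüppel-like factors at 1.60.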

How the data were processed

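Gene expression was measured in 6 leukemias with a 1-colour Affymetrix mouse array, after total RNA was purified on columns and fragmented cDNA was labelled with biotin by the NuGEN system, per the labels' protocols. The deposited values were linear probe set intensities on a common scale with a floor of 1. Their summary, background and normalization steps are not given in the sources used here, and there were no detection calls.

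Gene names came from the platform annotation, in which 34958 of 45101 probe sets had 1 symbol, 932 several and 9211 none. Genes were represented by the probe set of highest mean log2 intensity, and probe sets of the 8 genes were also fitted singly. Log2 intensities were compared with limma 3.58.1 in R 4.3.3, two-sided, with no filter or covariate, and with Benjamini-Hochberg adjustment over all genes or all probe sets with 1 symbol at 0.05. Errors are moderated standard errors. The fit was tested on simulated data. Background limits, from 14.1 to 22.5, were the highest of 27 Bacillus spike-in probe sets. A dim array was raised to its limit for lower bounds. Promoter windows were searched for exact motifs.

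The 8 genes, the pathway and marker lists and the limit were chosen with earlier results of these data known. Of each pathway list, genes past the threshold or else the 2 of lowest p were named, and other genes were chosen after their values were seen. Replicate numbers did not pair the arrays: the labels name no shared batch, and deviations of same-numbered arrays correlated at -0.09 to 0.04 across genes. Alternatives covered normalization, dim-gene filters, an offset of 16, probe set choice, moderation, thresholds, a replicate block and leaving out arrays.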

Additional observations from a re-analysis of the deposited data

How the results depend on the processing

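Under 20 alternatives, 0 of the 8 Krüppel-like factor genes, 0 of their probe sets (in the alternatives fitted to single probe sets) and 0 of the 71 other pathway genes passed at the threshold. Klf7 stayed higher in Runx1-KO in all 20, with a log2 difference of 0.53 to 0.94 and an adjusted p of 0.0695 to 0.439, and so did Klf9, with 0.98 to 2.09 and an adjusted p of 0.144 to 0.512. Neither crossed 0.05 by any limma fit, including those with array weights or a variance trend.

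The number of genes past the threshold over the whole table was 16, and 34 among genes above background on at least 3 arrays, 43 among the brighter genes, 64 with the offset, 104 with a trend and robust fitting, 71 with array weights, 36 at an adjusted p under 0.1 and 8 with the ordinary statistic. It was 2 to 3 with any 1 array left out and 0 without both arrays numbered 1. With the replicate number as a block it was 0, and Klf7 had an adjusted p of 0.404 and Klf9 of 0.452 with unchanged differences. Members whose groups did not overlap numbered 4 without both arrays numbered 1 (Klf2 and Klf3 joined), where 47.3% of all genes did not overlap. With 1 array left out they numbered 2 to 3. The share over all genes was not computed for that setting, so this count cannot be set against it.

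Some signs turned, all of values that had not passed. Klf4 was 0.026 with quantile normalization and 0.026 with the mean of its probe sets, and ran from -0.51 to 0.34 with 1 array left out. Klf6 was 0.0036 with quantile normalization and -0.39 to 0.24 with 1 array left out. Klf10 was -0.29 with array weights and -0.17 to 0.39 with 1 array left out. Klf13 was 0.0055 and Klf12 -0.22 with the mean of probe sets. Ccr7 was 0.099 with array weights, 0.26 without both arrays numbered 1 and -1.02 to 0.39 with 1 array left out. Lgals3 was -0.091 with array weights and -0.48 to 0.44, and Thbd was 0.084 without Control 3 and -0.36 to 0.08, with 1 array left out. The causes were not tested. With 3 arrays per group, differences such as that of Klf3 could not be told from 0, and genes at background carry no usable fold.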
